A study of Mus musculus with 12 samples.

Results

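Colon tissue of mice with colitis from dextran sulfate sodium (DSS) was compared with untreated colon by RNA sequencing. The comparison used 6 of the 12 libraries of the series, chosen by their labels: DSS 2, DSS 3 and DSS 5, and the untreated libraries Ctrl 1, Ctrl 4 and Ctrl 5. All 22279 genes with enough counts across the 12 libraries were tested, and no library given ImP entered the contrast. The other 6 libraries, 3 labelled DSS_ImP and 3 labelled ImP, helped to set which genes were tested and to estimate the spread between replicates. They are shown where they bear on a result. With only the DSS and Ctrl libraries 20461 genes had enough counts. All mice are labelled wild type. Strain, age, sex, and the dose and duration of DSS are not in the labels, and the treatment of Ctrl mice is entered as null. ImP is not spelled out there; the series text speaks of 7 days of it in colitis, and the title names polysaccharides of Angelica dahurica. The labels do not say whether each library came from a separate mouse, so the p-values here cover the spread among these libraries alone.

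DSS is a sulfated polymer that damages the colon epithelium when mice drink it. Bacteria then reach the mucosa, chemokines recruit neutrophils, epithelial cells make antimicrobial proteins, and repair involves matrix proteases and growth factors of the EGF family. The gut also carries a tonic interferon response, in which interferon receptors act through Jak kinases, and a complex that holds Stat2 and Irf9 binds interferon-stimulated response elements before its target genes.

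Total counts ran from 55419380 to 66707248 in the 6 libraries. Epcam, a marker of epithelium, lay between 517 and 650 FPKM in all of them (fragments scaled to transcript length and library size, as deposited by the authors), and the intestinal transcription factor Cdx2 between 77.4 and 88.5 FPKM. Transcripts of liver split the libraries against their labels. Summed over 12 liver genes, counts scaled to library size (CPM) were 95.5 in DSS 2, 4.02 in DSS 3 and 4.62 in DSS 5, against 107, 118 and 114 in Ctrl 1, Ctrl 4 and Ctrl 5. Alb (serum albumin) alone had 36.1, 0.255 and 0 CPM in DSS 2, DSS 3 and DSS 5, against 41.5, 45.8 and 42.7 CPM in the Ctrl libraries. DSS 2 thus lay with the Ctrl libraries, while DSS 3 and DSS 5 lay with the ImP and DSS_ImP libraries, at 4.60 to 9.67 CPM. Over 5 pancreatic genes the sums were 0, 6.82 and 5.08 CPM in the DSS libraries and 0, 2.09 and 0.0837 CPM in the Ctrl libraries. Fat genes spread widely within both groups, from 83.7 to 673 CPM in DSS and from 81.6 to 781 CPM in Ctrl. Because the liver trace runs partly with the groups, some lists are given also for DSS 2 against the 3 Ctrl libraries, which all carry it, and some without DSS 2. In the first of these fits the lone DSS library is assumed to vary like the Ctrl libraries.

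**Figure D1:**
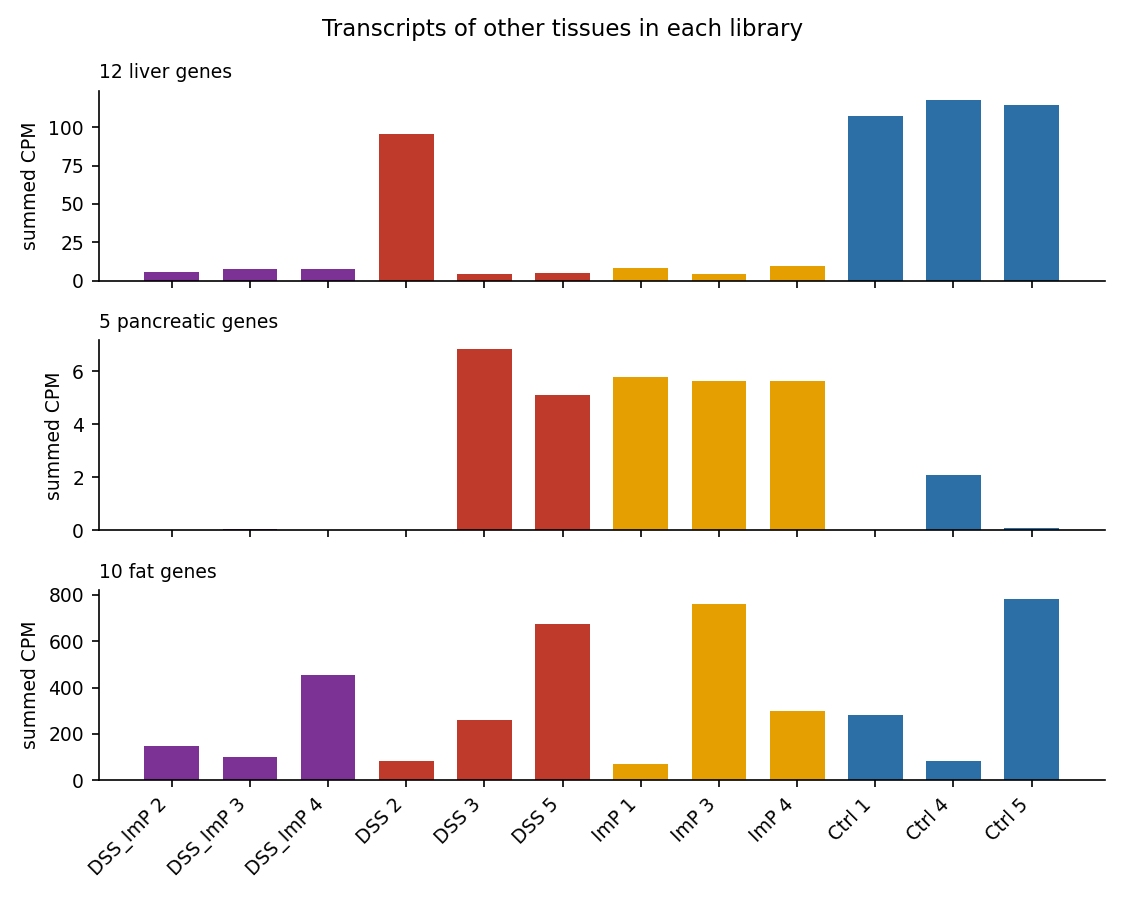
Summed CPM of 12 liver genes, 5 pancreatic genes and 10 fat genes in each of the 12 libraries, 1 bar per library, coloured by group (DSS_ImP purple, DSS red, ImP orange, Ctrl blue). The liver sum was 95.5 CPM in DSS 2 and 107 to 118 CPM in the Ctrl libraries, and 4.02 to 9.67 CPM in the other 8.

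In DSS colon 269 genes rose and 354 fell at an adjusted p under 0.05 (edgeR's quasi-likelihood test, Benjamini-Hochberg adjustment over all tested genes), which is 1.21% and 1.59% of the genes tested and 2.80% together. The median log2 change of all tested genes was -0.02. The DSS libraries lay wholly above or wholly below the Ctrl libraries for 4982 genes, 22.4% of those tested, and this held for all 623 called genes. Of the 623, 189 were also called in DSS 2 against the Ctrl libraries and 302 without DSS 2; since no called gene had overlapping groups, their direction in these fits was fixed by the selection. An unadjusted p under 0.05 was found for 3409 genes, 15.3% of those tested. The total was 374, 368 and 285 calls without DSS 2, DSS 3 and DSS 5, and 332, 268 and 409 without Ctrl 1, Ctrl 4 and Ctrl 5. With the presence of the liver trace (over 50 CPM) as a term in the model 52 genes were called, 46 of them among the 623. Each gene list below is described by how many tested members were called. These counts stand beside the shares over all tested genes: 1.21% rose, 1.59% fell and 15.3% had an unadjusted p under 0.05. DESeq2 called 700 genes higher and 797 lower of 22219. Up to 4 members per list were named by smallest p, besides the genes with the largest changes; further members are named for their role and were chosen after their values were seen.

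Most genes of the interferon response were lower in DSS colon. Of 31 interferon-response genes tested, 26 fell and 0 rose, against 1.59% of all tested genes that fell. Their median log2 change was -1.98. The DSS libraries lay below the Ctrl libraries for all 31, against the 22.4% of all genes without overlap. Isg15, a ubiquitin-like protein attached to other proteins after interferon exposure, had 11.4, 17.1 and 10.5 FPKM in DSS 2, DSS 3 and DSS 5, against 122, 124 and 103 FPKM in Ctrl 1, Ctrl 4 and Ctrl 5. Every DSS library was far below every Ctrl library, and the fall was 9.15-fold (log2 change -3.19 ± 0.44 SE, adjusted p = 0.00353). Ifi44 had 0.724, 1.52 and 0.690 FPKM in DSS libraries and 8.11, 13.7 and 10.3 FPKM in Ctrl libraries, the largest fall among the genes named by size of change (log2 change -3.47 ± 0.47, adjusted p = 0.00331).

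Several genes of the 2′-5′ oligoadenylate synthetase family fell. The active enzymes of this family make the messenger that activates RNase L against viral RNA. Oas2 had 1.83, 4.11 and 2.94 FPKM in DSS libraries and 13.2, 27.0 and 21.0 FPKM in Ctrl libraries, a 6.97-fold fall (adjusted p = 0.00296). Oas3 fell 6.63-fold (adjusted p = 0.00273), Oasl2 fell 5.62-fold (adjusted p = 0.00207) and Oas1a fell 3.01-fold (adjusted p = 0.00170). Oas1g fell 2.87-fold (adjusted p = 0.000943); it is a close copy of Oas1a, so the split of reads between them is uncertain. Oasl1 and Oas1b fell too (log2 changes -1.36 and -2.08), while Oas1c, Oas1h and Oas1d were not called (-0.76, -1.47 and -0.64). Rsad2 (viperin), an inhibitor of viral replication, had 2.38, 1.73 and 0.671 FPKM in DSS libraries against 8.52, 11.8 and 9.83 FPKM in Ctrl libraries (log2 change -2.68 ± 0.47, adjusted p = 0.0105). DSS 5 was the lowest library and the groups were well apart. Usp18, the protease that removes Isg15 from proteins and dampens receptor signalling, fell 5.64-fold (adjusted p = 0.00848), and the helicase Ddx60 fell 6.16-fold (adjusted p = 0.00490). The cytosolic RNA sensor Ifih1 (Mda5) had 8.28, 10.2 and 8.87 FPKM in DSS libraries and 15.1, 18.2 and 17.8 FPKM in Ctrl libraries, a 1.91-fold fall (adjusted p = 0.00231).

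Ifit1, which binds RNA lacking host cap methylation, had 6.93, 11.1 and 9.11 FPKM in DSS libraries and 41.1, 46.5 and 52.1 FPKM in Ctrl libraries (log2 change -2.39 ± 0.43, adjusted p = 0.0119), and was not called without DSS 2 or DSS 5 (adjusted p at most 0.0581). Mx2, a GTPase against viruses, had 0.522, 0.533 and 0.481 FPKM against 1.24, 2.25 and 2.65 FPKM (adjusted p = 0.0217), and was not called without Ctrl 4, Ctrl 5 or any 1 DSS library (at most 0.0877). The 5 members not called were Ifit2 (log2 change -3.04, adjusted p = 0.0574), Ifi27l2a (-1.76, adjusted p = 0.0733), Mx1 (-1.09, adjusted p = 0.270), Samd9l (-0.57, adjusted p = 0.0539) and Eif2ak2 (-0.55, adjusted p = 0.0919). Ifit2 had 0.674, 13.7 and 8.76 FPKM in DSS libraries and 60.6, 73.8 and 52.2 FPKM in Ctrl libraries, with DSS 2 far below the other DSS libraries. In DSS 2 against the Ctrl libraries 25 members were called lower with a median of -1.99, and without DSS 2 there were 24 with a median of -1.96.

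**Figure D2:**
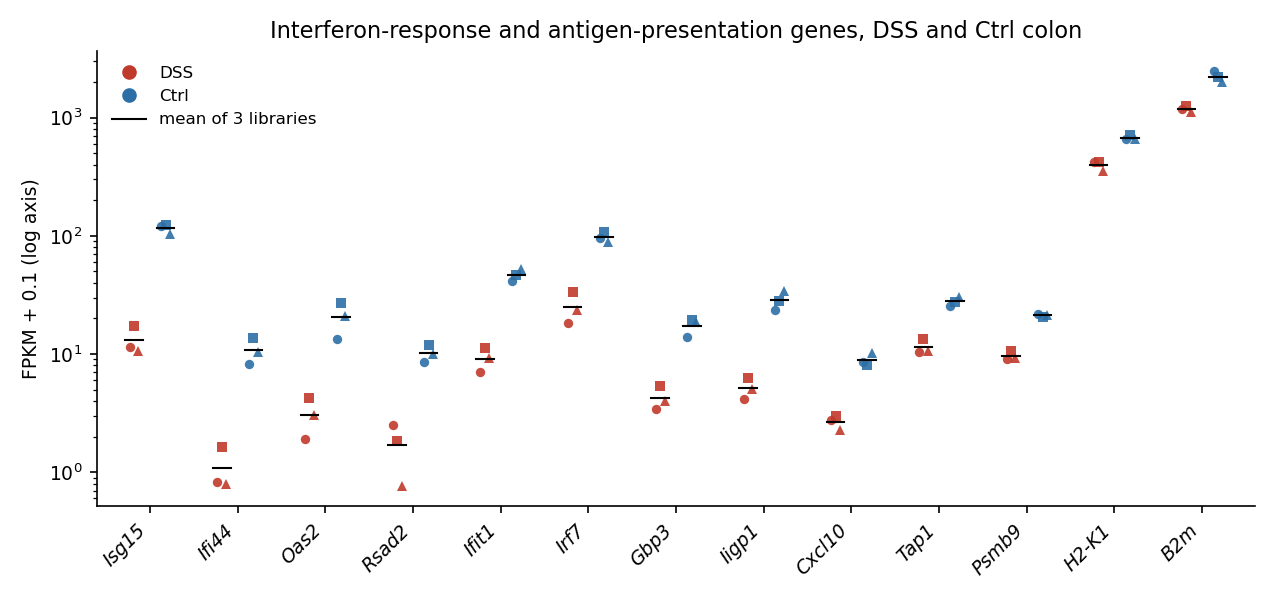
FPKM plus 0.1 on a log axis for 13 genes of the interferon response and antigen presentation, DSS libraries in red left of Ctrl libraries in blue; circle, square and triangle are the 3 libraries of a group by rising number and the black line is their mean. All 3 DSS libraries lie below all 3 Ctrl libraries for each gene, from Isg15 (10.5 to 17.1 against 103 to 124 FPKM) to B2m (1120 to 1260 against 1989 to 2452 FPKM).

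The sequence before the starts of these genes can be read for the letters of the response element. The letters GAAANNGAAA, read on either strand (TTTCNNTTTC on the other) and with overlapping matches allowed, were searched in the 250 bases before the annotated start (RefSeq, GRCm38.p6). They were found in 3.04% of all 27025 promoters and in 391 of the 14014 promoters of tested genes (2.79%). They were found in 11 of the 23 interferon-response genes with a promoter in the table, in 41 of 279 genes that fell in DSS (14.7%) and in 3 of 205 genes that rose (1.46%). A match describes the letters and is not a measured binding site. The stretches that follow, 5′ to 3′ along the gene's strand with matches in capitals, show the element in genes of the response: Isg15 with all 250 bases (minus strand, chr4:156200819-156201068), and 60 bases each of Ifit1 (plus strand, chr19:34640769-34640828), Rsad2 (minus strand, chr12:26456538-26456597), Oas1a (minus strand, chr5:120907526-120907585) and Stat2 (plus strand, chr10:128270251-128270310).
Isg15: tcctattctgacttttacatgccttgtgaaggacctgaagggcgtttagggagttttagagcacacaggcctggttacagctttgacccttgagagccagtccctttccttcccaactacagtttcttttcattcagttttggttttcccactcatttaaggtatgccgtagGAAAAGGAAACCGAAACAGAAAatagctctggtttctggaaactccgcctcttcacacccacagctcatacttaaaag
Ifit1: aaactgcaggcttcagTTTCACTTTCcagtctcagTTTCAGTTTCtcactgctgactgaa
Rsad2: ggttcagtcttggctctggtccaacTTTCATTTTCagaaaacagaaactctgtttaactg
Oas1a: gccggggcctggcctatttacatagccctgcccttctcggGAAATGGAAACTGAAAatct
Stat2: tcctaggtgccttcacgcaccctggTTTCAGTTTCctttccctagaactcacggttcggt

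Among the 18 signalling components of the pathway, 6 fell and 1 rose, with a median log2 change of -0.02; Irf7, Irf9, Stat2, Irf1 and Socs1 were among those that fell. Irf7, the factor that amplifies type I interferon production, had 18.3, 33.2 and 23.4 FPKM in DSS libraries and 95.1, 107 and 89.3 FPKM in Ctrl libraries, a 3.97-fold fall (adjusted p = 0.00273). Stat2 had 7.87, 9.97 and 9.04 FPKM in DSS libraries, against 18.5, 25.6 and 25.6 FPKM in Ctrl libraries (log2 change -1.40 ± 0.19, adjusted p = 0.00325). Its partner Irf9 fell 1.87-fold (adjusted p = 0.00306). Irf1 fell 1.58-fold (adjusted p = 0.0112) and was not called without DSS 2 (adjusted p = 0.0509).

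The receptor subunits Ifnar1 and Ifnar2 had log2 changes of 0.13 ± 0.08 and -0.03 ± 0.16 (adjusted p = 0.511 and 0.959), and the kinases Jak1, Jak2 and Tyk2 had 0.13 ± 0.09, 0.02 ± 0.10 and 0.30 ± 0.10 (adjusted p = 0.548, 0.949 and 0.145). None of these passed the threshold, which does not show that they were equal. Socs1, an inhibitor of Jak kinases, had 0.890, 0.865 and 1.01 FPKM in DSS libraries and 2.17, 1.52 and 2.67 FPKM in Ctrl libraries (adjusted p = 0.0214). Socs3, which restrains signalling by cytokines of the Il6 type, moved the other way, with 32.3, 24.9 and 33.4 FPKM in DSS libraries against 5.98, 9.45 and 9.97 FPKM in Ctrl libraries, a 3.51-fold rise (adjusted p = 0.0163). Socs1 was not called without any 1 of Ctrl 1, Ctrl 5, DSS 2, DSS 3 or DSS 5 (adjusted p at most 0.0794), and Socs3 without Ctrl 1, Ctrl 4 or DSS 5 (at most 0.0812); without DSS_ImP 2 the list had 2 rises.

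Guanylate-binding proteins and immunity-related GTPases, which attack vacuoles that hold intracellular microbes, fell in 12 of 14 tested members, against 1.59% of all tested genes. The median log2 change was -1.61. The groups did not overlap for any of the 14, against 22.4% of all tested genes without overlap. Iigp1 had 4.09, 6.18 and 4.94 FPKM in DSS libraries and 23.5, 28.1 and 34.1 FPKM in Ctrl libraries (log2 change -2.52 ± 0.44, adjusted p = 0.0103, and 0.0535 without DSS 5). Gbp6 had 1.78, 2.28 and 2.49 FPKM in DSS libraries against 8.34, 13.6 and 13.1 FPKM in Ctrl libraries (log2 change -2.44 ± 0.37, adjusted p = 0.00532). Gbp3 fell 4.199-fold (adjusted p = 0.00501) and Irgm2 fell 2.89-fold (adjusted p = 0.00596). Gbp5 and Gbp8 were not called (adjusted p = 0.117 and 0.0705). Tgtp1 and Tgtp2 are near-identical copies, so their separate counts are uncertain. The number of falls was 4, 7 and 3 without DSS 2, DSS 3 and DSS 5, and 6 and 7 without Ctrl 4 and Ctrl 5, while the median stayed between -1.72 and -1.50. In DSS 2 against the Ctrl libraries 10 members were called lower. All 9 of these genes with a promoter in the table held GAAANNGAAA within 250 bases before the start, and Gbp3 (plus strand, chr3:142559977-142560036) and Irgm1 (minus strand, chr11:48871421-48871480) are shown with matches in capitals.
Gbp3: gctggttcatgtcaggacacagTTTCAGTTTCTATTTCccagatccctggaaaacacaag
Irgm1: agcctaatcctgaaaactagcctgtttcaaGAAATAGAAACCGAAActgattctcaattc

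Most genes that make and load peptides for MHC class I fell. Of 16 tested members 12 fell, against 1.59% of all tested genes, with a median log2 change of -0.80. The groups did not overlap for any of the 16, against 22.4% of all tested genes without overlap. B2m, the light chain shared by class I molecules, had 1170, 1260 and 1120 FPKM in DSS libraries and 2452, 2188 and 1989 FPKM in Ctrl libraries, a 1.92-fold fall (adjusted p = 0.00612). The non-classical class I molecule H2-T23 (Qa-1) had 81.4, 84.9 and 85.9 FPKM in DSS libraries against 189, 205 and 182 FPKM in Ctrl libraries (log2 change -1.23 ± 0.13, adjusted p = 0.00156). Values within each group were close together for both genes. The immunoproteasome subunit Psmb9 fell 2.26-fold (adjusted p = 0.00490), the peptide transporter subunit Tap1 fell 2.50-fold (adjusted p = 0.00743) and the loading chaperone Tapbp fell 1.68-fold (adjusted p = 0.00688).

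The classical molecule H2-K1 fell 1.75-fold (adjusted p = 0.0163) and was not called without Ctrl 1, Ctrl 4 or DSS 5 (adjusted p at most 0.0782). H2-D1 (log2 change -0.45, adjusted p = 0.0683), H2-Q7 (-1.07, adjusted p = 0.0707), Psmb10 (-0.43, adjusted p = 0.0604) and Erap1 (-0.29, adjusted p = 0.151) were not called. The class I list had 5 falls without DSS 5, 7 without Ctrl 4, and 3 in DSS 2 against the Ctrl libraries, where its median was -0.88. B2m (plus strand, chr2:122147523-122147582) holds 1 match to GAAANNGAAA, in capitals.
B2m: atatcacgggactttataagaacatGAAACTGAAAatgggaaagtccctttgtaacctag

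Of the 10 MHC class II genes, 0 were called by edgeR, 7 had an unadjusted p under 0.05 (against 15.3% of all tested genes) and 7 were called lower by DESeq2; 8 had a negative log2 change and the median was -0.80. H2-Aa had 63.9, 63.7 and 49.6 FPKM in DSS libraries against 117, 108 and 97.0 FPKM in Ctrl libraries (adjusted p = 0.0718), and the class II transactivator Ciita had 2.89, 2.22 and 1.86 FPKM in DSS libraries against 3.95, 4.71 and 5.34 FPKM in Ctrl libraries (adjusted p = 0.124). Both had every DSS library below every Ctrl library. Without DSS_ImP 2, DSS_ImP 3, ImP 3 or ImP 4 the list had 6, 1, 1 and 3 falls.

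The interferon-gamma chemokines, which draw T cells through the receptor Cxcr3, were lower as well. Cxcl9 had 1.63, 5.56 and 4.60 FPKM in DSS libraries and 16.7, 14.3 and 15.9 FPKM in Ctrl libraries (adjusted p = 0.0258), and Cxcl10 had 2.67, 2.86 and 2.17 FPKM against 8.42, 7.93 and 10.01 FPKM (adjusted p = 0.0376). Neither was called without Ctrl 1, Ctrl 4, Ctrl 5 or DSS 5, nor Cxcl10 without DSS 2 or DSS 3 (adjusted p at most 0.0857 and 0.141). Ifng, the gene of interferon-gamma, had 0.108, 0.234 and 0.0310 FPKM in DSS libraries and 0.384, 0.264 and 1.16 FPKM in Ctrl libraries and was not called (adjusted p = 0.275). Together with Ccl6 and Ccl5 these made 4 falls among 17 CC and interferon-gamma chemokines, and Ccl28 rose (median log2 change -0.26). Ccl6 had 117, 125 and 141 FPKM in DSS libraries against 269, 255 and 211 FPKM in Ctrl libraries (adjusted p = 0.00385). Ccl28, which draws IgA-secreting cells to mucosa, had 25.3, 18.9 and 40.7 FPKM in DSS libraries and 8.73, 11.4 and 10.9 FPKM in Ctrl libraries (adjusted p = 0.0100, and 0.0518 without Ctrl 1). The falls numbered 1 without Ctrl 1, Ctrl 4 or DSS 5 and 2 without Ctrl 5 or DSS 3. The Cxcl10 promoter (minus strand, chr5:92349068-92349127) holds 1 match to the response element, in capitals.
Cxcl10: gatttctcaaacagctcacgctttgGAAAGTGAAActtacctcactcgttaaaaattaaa

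Markers of T and NK cells are given beside these genes. Of 20 tested, 0 were called by edgeR, 9 had an unadjusted p under 0.05 (against 15.3% of all tested genes) and 4 were called lower by DESeq2 (against 797 of 22219 genes). All 20 had a negative log2 change and the median was -0.54. Without DSS 2, ImP 3 or ImP 4 the list had 1, 2 and 1 falls. Summed over the list they had 159, 141 and 141 CPM in DSS libraries and 260, 248 and 204 CPM in Ctrl libraries, without overlap. In bulk tissue, fewer cells of a type and less RNA per cell cannot be told apart, and the part of T and NK cells in the lower interferon response was not tested. Of 18 monocyte and macrophage markers edgeR called 0, 4 had an unadjusted p under 0.05 and DESeq2 called 1 lower, with 432 to 734 CPM in DSS libraries and 551 to 583 CPM in Ctrl libraries.

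Both calprotectin genes of neutrophils were near absent in Ctrl colon and higher in DSS colon. Of 16 tested neutrophil markers 4 rose, S100a9, Mmp9, Ly6g and S100a8, and 0 fell, against 1.21% of all genes that rose. The median log2 change was 2.30, or 1.93 with Mmp8 and Ngp, which had no count in any Ctrl library, set to their lower bound against a floor of 12 counts over the group. S100a9, a subunit of calprotectin and an abundant cytosolic protein of neutrophils, had 17.4, 25.2 and 7.58 FPKM in DSS libraries, against 0.175, 0.249 and 0 FPKM in Ctrl libraries. Its partner S100a8 had 9.35, 8.90 and 5.82 FPKM in DSS libraries and 0.193, 0 and 0 FPKM in Ctrl libraries. The DSS libraries together held 1855 counts of S100a9 and 1177 of S100a8, and the Ctrl libraries 16 and 10. The ratio of summed counts was 106 (95% interval 41.2 to 392, adjusted p = 0.00467) for S100a9 and 108 (95% interval 36.9 to 1117, adjusted p = 0.0201) for S100a8, by the exact Clopper-Pearson method with 4 counts taken as 1 read pair, which covers counting error only. S100a8 was not called without any 1 of the Ctrl libraries (adjusted p at most 0.0925).

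Ly6g, the surface protein used to sort neutrophils, had 98.4, 63.4 and 32.7 FPKM in DSS libraries and 0.686, 1.65 and 7.24 FPKM in Ctrl libraries (log2 change 4.33 ± 0.83, adjusted p = 0.0164). It belongs to a family of close paralogs, so its reads are uncertain. It was as high in ImP libraries, which received no DSS (59.2 to 216 FPKM), where S100a9 reached at most 2.40 FPKM. The gelatinase Mmp9 had 0.470, 1.65 and 0.955 FPKM in DSS libraries against 0.157, 0.169 and 0.230 FPKM in Ctrl libraries (adjusted p = 0.0149). Ly6g and Mmp9 were not called without Ctrl 1 or Ctrl 4 (adjusted p at most 0.0849 and 0.0741), and the list then had 1 rise. The neutrophil granule genes Ngp and Camp stayed near the floor. Ngp had 0.239, 0.107 and 0.117 FPKM in DSS libraries and was listed at 0 in Ctrl libraries. Camp had 0.178, 0 and 0 FPKM in DSS libraries and 0, 0.0870 and 0 FPKM in Ctrl libraries. In DSS 2 against the Ctrl libraries 3 markers were called higher. Among 11 mast cell and eosinophil markers Ms4a2 rose, with 34 counts over the DSS libraries and 0 over the Ctrl libraries, at least 2.59-fold higher (adjusted p = 0.0310), and it was not called without any 1 of the 6 libraries, DSS_ImP 4 or ImP 3 (at most 0.0937).

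Of 10 chemokines and growth factors that recruit neutrophils, 2 rose and 0 fell; the median log2 change was 2.72, or 1.97 with Il17a and Il17f, absent from all Ctrl libraries, at their bound. Cxcl5, an epithelial ligand of the receptor Cxcr2, had 2.90, 6.93 and 3.23 FPKM in DSS libraries and 0.0760, 0.0930 and 0.156 FPKM in Ctrl libraries, a 37.5-fold rise (log2 change 5.23 ± 0.86, adjusted p = 0.00757). Cxcl2 had 1.63, 3.61 and 0.940 FPKM in DSS libraries and 0.213, 0.137 and 0.109 FPKM in Ctrl libraries (adjusted p = 0.0146, and at most 0.0735 without Ctrl 4 or Ctrl 5). Cxcl1 (log2 change 2.67 ± 0.74, adjusted p = 0.0809) and Cxcl3 (2.76 ± 0.68, adjusted p = 0.0550) were not called although the groups did not overlap. Il17a, which makes epithelium and stroma secrete these chemokines, had 0.0530, 0.251 and 0.560 FPKM in DSS libraries and was listed at 0 in all Ctrl libraries, at least 5.72-fold higher, and was not called (adjusted p = 0.0619). The list had 1 rise without Ctrl 4 or Ctrl 5, and 4 without ImP 1 or ImP 4.

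A consensus site for NF-kappaB, a factor activated by bacterial products and Il1, was found within 250 bases before the start of Cxcl1, Cxcl2, Cxcl3 and Csf1, 4 of the 8 genes of this list with a promoter in the table. It was found in 3.75% of all promoters and in 4.47% of those of tested genes, in 14 of 205 genes that rose (6.83%) and in 14 of 279 genes that fell (5.02%). Among the MHC class I genes, of which most fell, 5 of 14 promoters held it. Windows of 60 bases of Cxcl1 (plus strand, chr5:90891149-90891208), Cxcl2 (plus strand, chr5:90903777-90903836) and Cxcl3 (plus strand, chr5:90786003-90786062) share the same run of letters, in capitals.
Cxcl1: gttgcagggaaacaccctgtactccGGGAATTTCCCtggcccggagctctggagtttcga
Cxcl2: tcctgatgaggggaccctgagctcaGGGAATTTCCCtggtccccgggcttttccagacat
Cxcl3: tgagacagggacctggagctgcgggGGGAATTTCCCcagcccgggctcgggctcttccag

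Of 16 inflammatory cytokines 3 rose, Il18, Il11 and Il1b, and 0 fell (median log2 change 0.77). Il18, made by colon epithelium and cleaved by the inflammasome, had 58.2, 40.0 and 42.2 FPKM in DSS libraries and 8.44, 8.44 and 7.94 FPKM in Ctrl libraries, a 5.51-fold rise (adjusted p = 0.00296). ImP libraries, which received no DSS, lay near the DSS libraries for Il18, with values given below. Il11, a stromal cytokine of the Il6 family, had 1.22, 1.97 and 0.703 FPKM in DSS libraries against 0.0740, 0.103 and 0.163 FPKM in Ctrl libraries (log2 change 3.40 ± 0.55, adjusted p = 0.00692). Il1b had 5.54, 10.7 and 2.59 FPKM in DSS libraries and 1.51, 1.83 and 1.80 FPKM in Ctrl libraries (log2 change 1.85 ± 0.43, adjusted p = 0.0414). DSS 3 was the highest and DSS 5 the lowest DSS library for Il11 and Il1b. Il1b was not called without any 1 of Ctrl 1, Ctrl 4, Ctrl 5, DSS 2, DSS 3, ImP 1 or ImP 3 (adjusted p at most 0.143). Tnf (log2 change 0.73 ± 0.22, adjusted p = 0.107), Il6 (3.03 ± 1.21, adjusted p = 0.245) and Il22 (1.89 ± 1.29, adjusted p = 0.545) were not called. The glycoprotein Lrg1, one of the genes named by size of change, had 32.0, 27.6 and 29.7 FPKM in DSS libraries and 1.62, 2.01 and 2.15 FPKM in Ctrl libraries (adjusted p = 0.0367, and at most 0.140 without any 1 of the 6 libraries).

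**Figure D3:**
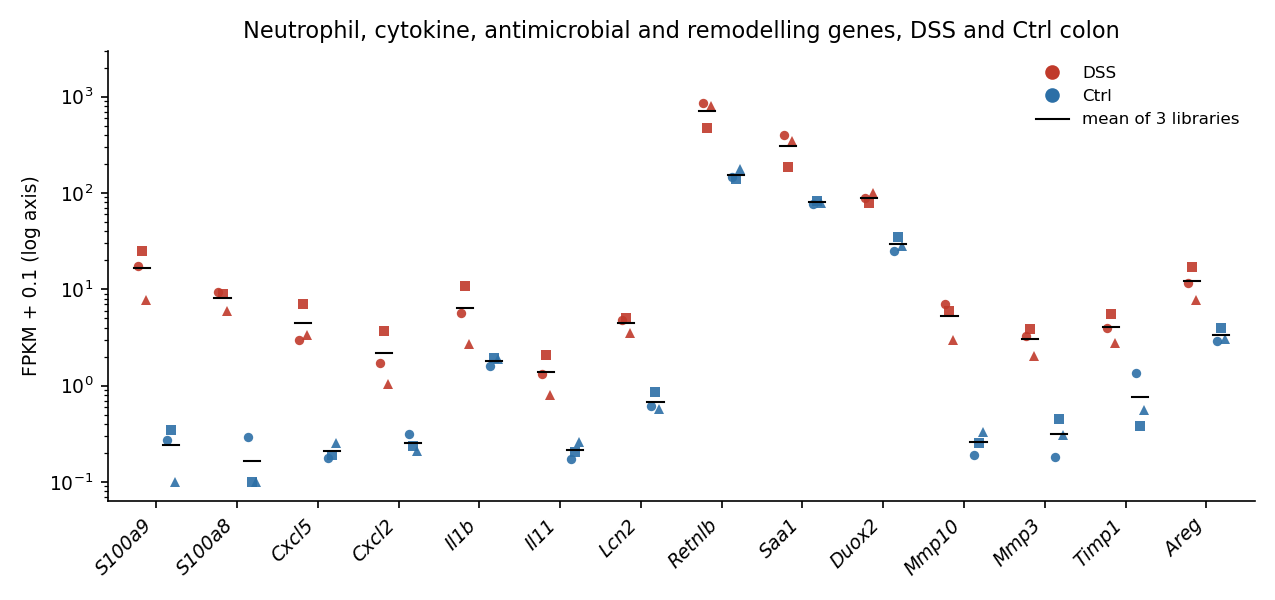
FPKM plus 0.1 on a log axis for 14 genes of neutrophils, cytokines, antimicrobial defence and remodelling, DSS libraries in red left of Ctrl libraries in blue; circle, square and triangle are the 3 libraries of a group by rising number and the black line is their mean. All 3 DSS libraries lie above all 3 Ctrl libraries for each gene, from S100a9 (7.58 to 25.2 against 0 to 0.249 FPKM) to Duox2 (79.4 to 98.9 against 25.0 to 35.1 FPKM).

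Antimicrobial genes of the epithelium rose in 6 of 19 tested members and fell in 0, against 1.21% of all tested genes that rose. The median log2 change was 1.93. It was positive for 15 members and negative for 4, the lowest at -2.24. The groups did not overlap, in either direction, for 17, against 22.4% of all tested genes. Lcn2 (lipocalin 2), which withholds iron from bacteria, had 4.66, 4.96 and 3.39 FPKM in DSS libraries and 0.510, 0.756 and 0.476 FPKM in Ctrl libraries, a 7.18-fold rise (adjusted p = 0.00688). Retnlb, a goblet cell protein that acts on bacteria, had 852, 476 and 804 FPKM in DSS libraries against 148, 138 and 176 FPKM in Ctrl libraries (adjusted p = 0.0163), the largest rise among the called genes named by change in FPKM. The oxidase Duox2 and its maturation factor Duoxa2, which make hydrogen peroxide at the apical surface, rose 2.97-fold and 4.06-fold (adjusted p = 0.0281 and 0.0269), and Nox1, a superoxide-forming oxidase of colon epithelium, rose 4.37-fold (adjusted p = 0.0193). Saa1, an acute-phase protein, had 402, 187 and 343 FPKM in DSS libraries and 77.7, 82.5 and 79.1 FPKM in Ctrl libraries (adjusted p = 0.0280).

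Some members with large differences and a wide spread were not called. Reg3b, a secreted antimicrobial lectin, had 10978, 6713 and 9074 FPKM in DSS libraries against 1417, 1914 and 753 FPKM in Ctrl libraries (log2 change 2.67 ± 0.76, adjusted p = 0.0894). Nos2, the inducible nitric oxide synthase, had 30.7, 21.0 and 45.6 FPKM in DSS libraries and 3.37, 5.33 and 4.27 FPKM in Ctrl libraries (log2 change 2.88 ± 0.73, adjusted p = 0.0600). The antimicrobial list had 1 rise without Ctrl 1, Ctrl 4, Ctrl 5 or DSS 5, 2 without DSS 2, and 10 without ImP 1 or ImP 4. Retnlb and Saa1 were not called without Ctrl 1, Ctrl 4, Ctrl 5, DSS 2 or DSS 5 (adjusted p at most 0.0822 and 0.102), nor Nox1 without Ctrl 1, Ctrl 4, Ctrl 5, DSS 3 or DSS 5 (0.0902), nor Duox2 and Duoxa2 without any 1 of the 6 (0.112 and 0.0998). Lcn2 was called in every fit with 1 library left out. In DSS 2 against the Ctrl libraries 11 members were called higher, with a median of 1.67.

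Of 27 genes of extracellular matrix and its remodelling 5 rose and 0 fell (median log2 change 0.68). Mmp10 (stromelysin 2), a protease secreted at wound edges, had 6.96, 5.85 and 2.87 FPKM in DSS libraries and 0.0890, 0.154 and 0.233 FPKM in Ctrl libraries, a 31.8-fold rise (log2 change 4.99 ± 0.66, adjusted p = 0.00296). Mmp3 had 3.19, 3.78 and 1.95 FPKM in DSS libraries against 0.0820, 0.351 and 0.209 FPKM in Ctrl libraries (adjusted p = 0.0145), and the protease inhibitor Timp1 had 3.88, 5.42 and 2.67 FPKM in DSS libraries against 1.26, 0.282 and 0.455 FPKM in Ctrl libraries (adjusted p = 0.0168). Lox, which crosslinks collagen, had 2.74, 2.88 and 2.62 FPKM in DSS libraries and 0.848, 0.836 and 0.832 FPKM in Ctrl libraries (adjusted p = 0.0114). The values of Lox hardly varied within either group. Mmp14 rose 1.55-fold (adjusted p = 0.0285, and at most 0.103 without any 1 of the 6 libraries). Col1a1, a main fibrillar collagen, had overlapping groups, with 7.39, 24.6 and 19.8 FPKM in DSS libraries and 8.95, 10.5 and 12.4 FPKM in Ctrl libraries. Mmp10 was called with any library left out, Mmp3 was not without Ctrl 1 or Ctrl 5, nor Timp1 without Ctrl 4, Ctrl 5 or DSS 3, nor Lox without Ctrl 4 (adjusted p at most 0.0734, 0.0682 and 0.0579). The list had 3 rises without Ctrl 1 or DSS 3, 2 without Ctrl 4 or Ctrl 5, and 8 without DSS 2. Grem1, a BMP antagonist made by stromal cells, was the 1 of 16 fibroblast markers to rise, with 16.7, 19.2 and 15.7 FPKM in DSS libraries and 3.60, 4.09 and 5.65 FPKM in Ctrl libraries (adjusted p = 0.00761); without Ctrl 5 or DSS 2 there were 2.

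Of 22 wound-edge and squamous-type epithelial genes 4 rose and 0 fell (median log2 change 0.69). Anxa1, an annexin that limits neutrophil entry and aids wound closure, had 49.1, 65.5 and 46.4 FPKM in DSS libraries and 23.5, 16.4 and 27.7 FPKM in Ctrl libraries (log2 change 1.22 ± 0.20, adjusted p = 0.00849). Anxa3 had 20.1, 22.9 and 20.3 FPKM in DSS libraries against 8.27, 8.07 and 11.4 FPKM in Ctrl libraries (adjusted p = 0.00612). Sprr2h, of the cornified envelope, held 453 counts over the DSS libraries and 6 over the Ctrl libraries, all in Ctrl 4, a ratio of 69.1 (95% interval 14.0 to 432, adjusted p = 0.00903). Sprr2a3 rose 1.98-fold (adjusted p = 0.00692), and has close copies that may share its reads. Ly6a and Clu, used as markers of regenerating gut epithelium, had overlapping groups. Ly6a had 301, 375 and 222 FPKM in DSS libraries and 276, 259 and 235 FPKM in Ctrl libraries (adjusted p = 0.757), and Clu had a log2 change of 0.10 ± 0.50 (adjusted p = 0.959). Of 11 EGF receptor ligands 1 rose, Areg (amphiregulin), with 11.7, 17.0 and 7.57 FPKM in DSS libraries and 2.84, 3.89 and 2.97 FPKM in Ctrl libraries (adjusted p = 0.00612); without DSS_ImP 3 there were 3.

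Of 24 hypoxia and glycolysis genes 3 rose and 0 fell (median log2 change 0.25). Slc16a3 (Mct4), a lactate exporter induced by hypoxia, had 4.37, 5.95 and 5.75 FPKM in DSS libraries and 1.45, 1.603 and 1.72 FPKM in Ctrl libraries (log2 change 1.72 ± 0.14, adjusted p = 0.000446). Hif1a, the oxygen-sensitive factor itself, had 21.6, 25.7 and 18.2 FPKM in DSS libraries against 7.58, 7.97 and 11.3 FPKM in Ctrl libraries (adjusted p = 0.00596). The prolyl hydroxylase Egln3 rose 2.26-fold (adjusted p = 0.0214, and at most 0.0953 without Ctrl 4, Ctrl 5 or any 1 DSS library). The enzyme Ldha and the growth factor Vegfa, both hypoxia targets, had overlapping groups (log2 changes 0.08 ± 0.14 and 0.06 ± 0.14). Without DSS_ImP 3 the list had 5 rises.

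**Figure D4:**
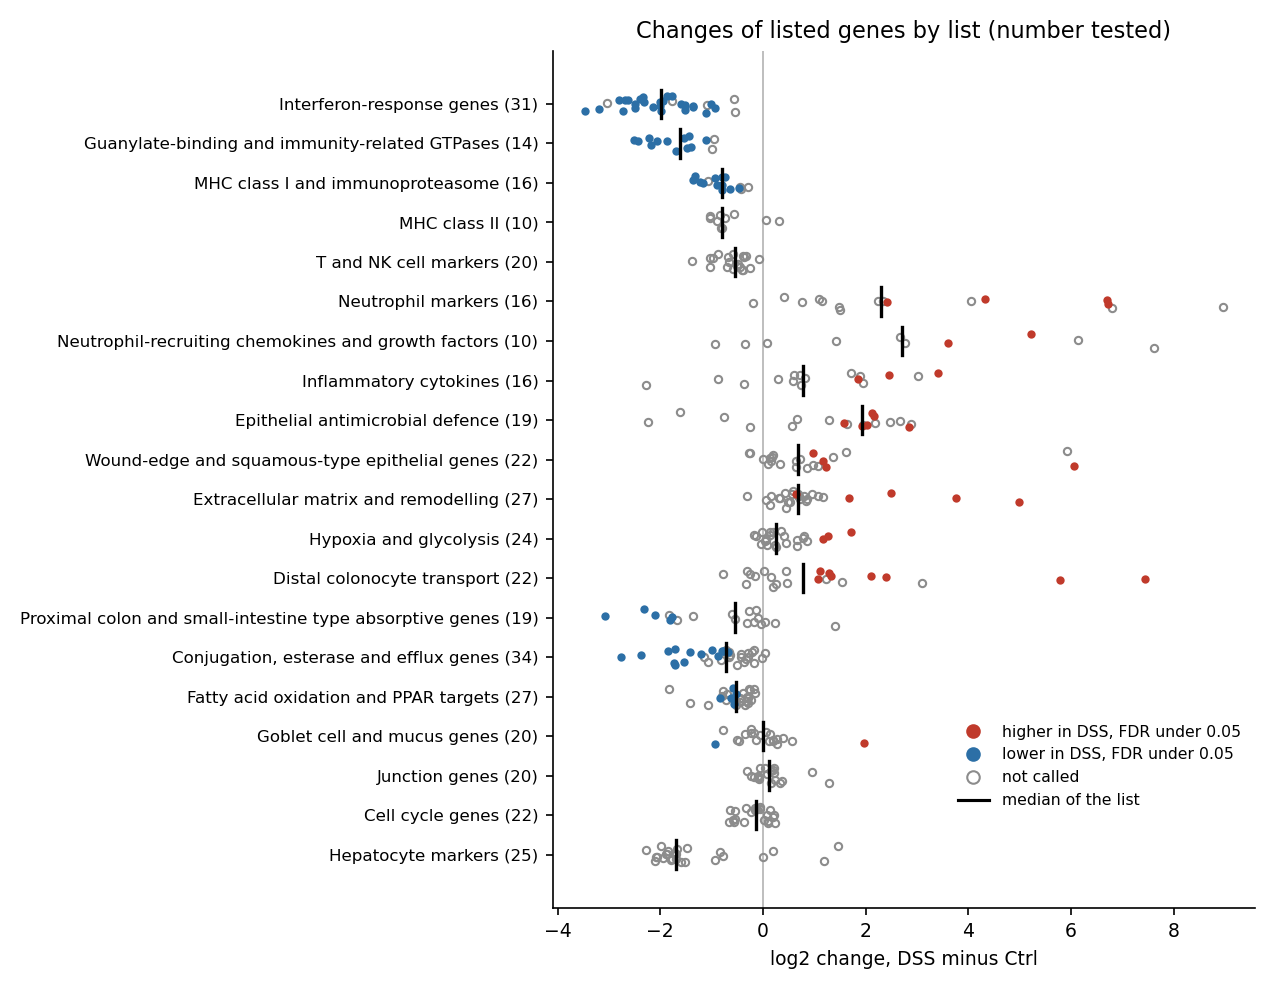
Log2 change, DSS minus Ctrl, of each tested member of 20 gene lists; filled points are called at an adjusted p under 0.05 (red higher, blue lower in DSS), open points are not called and the black bar is the median of the list. Interferon-response members all lie below 0 with a median of -1.98, while neutrophil markers have a median of 2.30; the points farthest to the right are genes with Ctrl counts at or near 0, whose fitted change is no bound.

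Some genes that vary along the colon differed between the groups. Of 22 transport genes of distal colonocytes 8 rose and 0 fell (median log2 change 0.77). Scnn1g, which encodes a subunit (gamma) of the sodium channel that aldosterone induces in distal colon, held 799 counts over the DSS libraries and 4 over the Ctrl libraries, a ratio of 183 (95% interval 32.5 to 7271, adjusted p = 0.00279). The beta subunit Scnn1b rose 2.46-fold (adjusted p = 0.0227), and the alpha subunit Scnn1a had overlapping groups (log2 change 0.20 ± 0.16). Hsd11b2, the enzyme that keeps glucocorticoids off the mineralocorticoid receptor, had 193, 139 and 180 FPKM in DSS libraries and 81.8, 75.2 and 80.8 FPKM in Ctrl libraries (adjusted p = 0.00331). The water channel Aqp4 had 74.6, 71.6 and 70.8 FPKM in DSS libraries against 9.90, 8.16 and 22.5 FPKM in Ctrl libraries (adjusted p = 0.00460), and the anion channel Best2 had 8.56, 6.61 and 7.87 FPKM in DSS libraries against 1.48, 1.86 and 1.89 FPKM in Ctrl libraries (adjusted p = 0.00580). Clca4b had 338, 353 and 315 FPKM in DSS libraries and 6.63, 6.83 and 4.37 FPKM in Ctrl libraries (adjusted p = 0.0149), with little spread in either group. The apical exchangers Slc9a3 and Slc26a3 rose 2.50-fold and 2.17-fold (adjusted p = 0.0239 and 0.0399). Clca4b was not called without any 1 Ctrl library (adjusted p at most 0.0724), nor Scnn1b without Ctrl 4, Ctrl 5, DSS 2 or DSS 5 (0.0789), nor Slc9a3 without Ctrl 1, Ctrl 4 or DSS 2 (0.107), nor Slc26a3 without Ctrl 1, Ctrl 4, any 1 DSS library, ImP 1 or ImP 3 (0.152). The list had 5 rises without Ctrl 1 or DSS 2 and 4 without Ctrl 4.

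Hox genes record position along the body axis, with the genes at the 5′ end of each cluster marking the most posterior tissue. Of 10 genes at the 5′ end 3 rose, Hoxa13, Hoxa11 and Hoxa10, and of 22 others 3 rose, Hoxa9, Hoxa5 and Hoxa7; the list medians were -0.25 and -0.61. Log2 changes were negative for 5 of the 10, down to -3.14, and for 17 of the 22, down to -2.89. In both lists edgeR called 0 lower, while DESeq2 called 0 lower in the first and 3 in the second. Without Ctrl 5 the median at the 5′ end was 1.57, with 4 rises. In DSS 2 against the Ctrl libraries the medians were 0.31 and -0.37, with 1 and 0 rises. Hoxa13 had 11.5, 10.5 and 8.85 FPKM in DSS libraries and 0.721, 0.885 and 3.15 FPKM in Ctrl libraries (log2 change 2.68 ± 0.43, adjusted p = 0.00628). Hoxa11 had 8.95, 6.13 and 6.22 FPKM in DSS libraries against 2.19, 1.45 and 2.47 FPKM in Ctrl libraries (adjusted p = 0.00480), and Hoxa10 had 10.9, 10.8 and 9.52 FPKM in DSS libraries against 2.77, 1.44 and 3.89 FPKM in Ctrl libraries (adjusted p = 0.00849). Ctrl 5 was the highest Ctrl library for all 3. All 6 called genes belong to the Hoxa cluster. Hoxb13, also a posterior gene, had 3.19, 8.31 and 4.97 FPKM in DSS libraries and 0.304, 0.197 and 6.78 FPKM in Ctrl libraries, with Ctrl 5 again high and the groups overlapping. Hoxa9 was not called without Ctrl 1 or any 1 DSS library (adjusted p at most 0.0879), nor Hoxa5 without Ctrl 4, Ctrl 5 or any 1 DSS library (0.0989), nor Hoxa7 without any 1 of the 6, DSS_ImP 2, DSS_ImP 4 or ImP 4 (0.130). Their list had 1 rise without Ctrl 1, Ctrl 4 or Ctrl 5 and 0 without DSS 2, DSS 3 or DSS 5.

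Of 19 absorptive genes of proximal colon and small intestine 5 fell and 0 rose (median log2 change -0.54). Fabp2, the intestinal fatty acid binding protein, had 114, 168 and 147 FPKM in DSS libraries against 725, 492 and 571 FPKM in Ctrl libraries (adjusted p = 0.00553). Cubn, an endocytic receptor, had 0.0770, 0.173 and 0.0960 FPKM in DSS libraries and 0.745, 1.29 and 0.862 FPKM in Ctrl libraries (log2 change -3.08 ± 0.43, adjusted p = 0.00385), and Sis (sucrase-isomaltase) fell 4.96-fold (adjusted p = 0.00501). Car1, carbonic anhydrase 1 of colonocytes, had the largest fall in FPKM among the called genes named by change in FPKM. It had 1568, 2235 and 1443 FPKM in DSS libraries and 7376, 5121 and 4873 FPKM in Ctrl libraries (adjusted p = 0.0104, and 0.0566 without DSS 5). Without DSS 2 the proximal list had 8 falls. The labels do not say which stretch of colon was taken, so for these genes an effect of DSS and a difference in the stretch sampled cannot be told apart.

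Some enzymes and pumps that handle foreign compounds fell. Of 34 conjugation, esterase and efflux genes 14 fell and 0 rose (median log2 change -0.72). The carboxylesterase Ces1g had 7.77, 11.5 and 10.5 FPKM in DSS libraries and 70.6, 69.2 and 57.2 FPKM in Ctrl libraries, a 6.79-fold fall (adjusted p = 0.000943). Ces1d and Ces1f fell 3.32-fold and 3.30-fold (adjusted p = 0.000943 and 0.00202), though close members of this family may share reads. The efflux pump Abcb1a (P-glycoprotein) had 64.8, 71.1 and 54.6 FPKM in DSS libraries against 169, 234 and 207 FPKM in Ctrl libraries (log2 change -1.70 ± 0.19, adjusted p = 0.00170). Of 19 cytochrome P450 genes 2 fell and 0 rose (median log2 change -0.69). Cyp4b1 had 1.74, 3.37 and 3.65 FPKM in DSS libraries and 16.3, 20.6 and 20.5 FPKM in Ctrl libraries (adjusted p = 0.00296), and Cyp2c55 had 336, 421 and 248 FPKM in DSS libraries and 1144, 1266 and 1051 FPKM in Ctrl libraries (adjusted p = 0.00474). The receptor Nr1i2 (Pxr), which induces such genes, had overlapping groups (log2 change -0.22 ± 0.12). Its relative Nr1i3 had 0.128, 0.0600 and 0.0860 FPKM in DSS libraries against 0.396, 0.301 and 0.730 FPKM in Ctrl libraries (adjusted p = 0.0172, and at most 0.0750 without Ctrl 5, DSS 3 or DSS 5). The conjugation list had 6, 8 and 9 falls without Ctrl 1, Ctrl 4 and Ctrl 5, 5 without DSS 3 or DSS 5, and 6 in DSS 2 against the Ctrl libraries; the P450 list had 4 falls and 1 rise without DSS_ImP 3.

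Of 27 fatty acid oxidation genes and targets of Ppar receptors 5 fell, all 27 had a negative log2 change and the median was -0.52. Ehhadh, a peroxisomal enzyme of beta oxidation, had 12.02, 12.4 and 11.6 FPKM in DSS libraries and 19.2, 22.3 and 21.5 FPKM in Ctrl libraries (log2 change -0.83 ± 0.10, adjusted p = 0.00243). Cpt1a, the gate for fatty acids into mitochondria, had 29.9, 31.2 and 33.2 FPKM in DSS libraries against 41.2, 50.7 and 46.5 FPKM in Ctrl libraries (adjusted p = 0.0128, and at most 0.0622 without Ctrl 4 or DSS 2). Hadh and Acadvl fell 1.54-fold and 1.48-fold (adjusted p = 0.0220 and 0.0281); Hadh was not called without Ctrl 1, Ctrl 4, Ctrl 5, DSS 2 or DSS 3, nor Acadvl without any 1 of the 6 (at most 0.0847 and 0.0989). The number of falls was 1, 2 and 3 without DSS 2, DSS 3 and DSS 5, 2, 1 and 3 without Ctrl 1, Ctrl 4 and Ctrl 5, and 9 without DSS_ImP 3.

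Of 20 goblet cell and mucus genes 1 fell, the protease Klk1, with 359, 364 and 437 FPKM in DSS libraries and 791, 687 and 677 FPKM in Ctrl libraries (adjusted p = 0.00490). In the same list 1 rose, the membrane mucin Muc1, with 3.07, 1.74 and 2.88 FPKM in DSS libraries against 0.400, 0.583 and 0.949 FPKM in Ctrl libraries (adjusted p = 0.0135, and at most 0.0676 without Ctrl 1, Ctrl 4 or DSS 5). The main secreted mucin Muc2 had overlapping groups, with 790, 595 and 744 FPKM in DSS libraries and 718, 967 and 991 FPKM in Ctrl libraries. Of 15 enteroendocrine markers 4 fell and 0 rose (median log2 change -0.34). Chga (chromogranin A) had 15.6, 18.7 and 15.8 FPKM in DSS libraries and 37.6, 41.4 and 31.8 FPKM in Ctrl libraries (adjusted p = 0.00530). Chgb, Tph1 and Sct fell 1.902-fold, 1.88-fold and 2.59-fold (adjusted p = 0.0153, 0.0237 and 0.0363), and without Ctrl 1, Ctrl 4, DSS 2 or DSS 5 the list had 1 fall. The peptide Guca2a, the 1 of 20 mature colonocyte genes to fall, fell 1.89-fold (adjusted p = 0.0142, and at most 0.0694 without Ctrl 1, DSS 3 or DSS 5); its list had 2 falls without Ctrl 4 and 3 without DSS_ImP 4. The channel Trpm5, the 1 of 13 tuft cell markers to fall, fell 1.91-fold (adjusted p = 0.0344, and at most 0.115 without any 1 Ctrl library, DSS 3, DSS 5 or DSS_ImP 2).

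Of 20 junction genes edgeR called 0, 2 had an unadjusted p under 0.05 and DESeq2 called 0. For this list and those that follow, the share of all tested genes with an unadjusted p under 0.05 was 15.3%. The pore-forming claudin Cldn2 and occludin (Ocln) had log2 changes of -0.08 ± 0.25 and -0.08 ± 0.10 (adjusted p = 0.938 and 0.773). Of 17 stem cell and Wnt targets edgeR called 0, 7 had an unadjusted p under 0.05 and DESeq2 called 2 higher and 2 lower; without DSS 2, DSS_ImP 3 or DSS_ImP 4 edgeR called 1 higher, and without DSS_ImP 3 1 lower. Lgr5, which marks crypt stem cells, had 0.310, 0.405 and 0.599 FPKM in DSS libraries and 0.609, 0.685 and 0.577 FPKM in Ctrl libraries, which overlap. Of 22 cell cycle genes edgeR called 0, 5 had an unadjusted p under 0.05 and DESeq2 called 0; without DSS 3 edgeR called 5 lower. DSS 2 was the lowest library for these, with 536, 1122 and 724 CPM summed over the list in the DSS libraries and 901, 1013 and 849 CPM in the Ctrl libraries. Of 25 hepatocyte markers edgeR called 0, 4 had an unadjusted p under 0.05 and DESeq2 called 2 lower; the median log2 change was -1.70, and -5.53 with 14 falls without DSS 2.

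Markers of some other cell types and of stress responses had no calls in the edgeR fit of all libraries. Over all tested genes 15.3% had an unadjusted p under 0.05, and DESeq2 called 700 of 22219 genes higher. Of 16 smooth muscle, 16 enteric neuron and glia, 17 endothelial, 8 mesothelial and 16 B and plasma cell markers edgeR called 0 in each list. Those with an unadjusted p under 0.05 numbered 1, 1, 3, 2 and 1, and DESeq2 called 0, 1, 2, 0 and 0 higher. Of 24 genes of the unfolded protein and integrated stress response edgeR called 0, 12 had an unadjusted p under 0.05 and DESeq2 called 3 higher and 1 lower (median log2 change 0.30). Of 21 immediate early genes edgeR called 0, 6 had an unadjusted p under 0.05 and DESeq2 called 3 higher. Of 26 genes of sterol and fatty acid synthesis edgeR called 0, 4 had an unadjusted p under 0.05 and DESeq2 called 2 higher.

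The levels in the groups given ImP are set beside these values without a contrast. A contrast of either group with Ctrl would share the Ctrl libraries, and DSS_ImP against ImP, which would not, was not tested. Isg15 had 36.01, 13.8 and 12.3 FPKM in DSS_ImP libraries and 11.4, 17.1 and 10.5 FPKM in DSS libraries, against 97.6, 59.8 and 178 FPKM in ImP libraries and 122, 124 and 103 FPKM in Ctrl libraries. S100a9 had 295, 802 and 192 FPKM in DSS_ImP and 17.4, 25.2 and 7.58 FPKM in DSS libraries, against 2.40, 0.607 and 0.424 FPKM in ImP and 0.175, 0.249 and 0 FPKM in Ctrl libraries. For Isg15 and S100a9 both groups with DSS lay on the same side of both groups without it. Other genes had ImP libraries, which received no DSS, near the DSS libraries. Hoxa13 had 11.8 to 15.7 FPKM in DSS_ImP, 8.85 to 11.5 FPKM in DSS, 9.72 to 15.6 FPKM in ImP and 0.721 to 3.15 FPKM in Ctrl libraries. Car1 had 648 to 1280 FPKM in DSS_ImP, 1443 to 2235 FPKM in DSS, 1485 to 2444 FPKM in ImP and 4873 to 7376 FPKM in Ctrl libraries, and Ces1g had 4.84 to 10.9, 7.77 to 11.5, 11.3 to 15.9 and 57.2 to 70.6 FPKM in the same order of groups. Il18 had 38.0 to 68.96 FPKM in DSS_ImP, 40.0 to 58.2 FPKM in DSS, 25.7 to 64.1 FPKM in ImP and 7.94 to 8.44 FPKM in Ctrl libraries. Ly6g had 156 to 406 FPKM in DSS_ImP, 32.7 to 98.4 FPKM in DSS, 59.2 to 216 FPKM in ImP and 0.686 to 7.24 FPKM in Ctrl libraries. For Hoxa13, Car1, Ces1g, Il18 and Ly6g the 3 Ctrl libraries stood apart from the other 9; the DSS libraries had to lie apart from them, since these genes were taken from those called, and the 5 were chosen after the levels in all groups were seen. The part of the liver trace in this pattern was not tested.

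**Figure D5:**
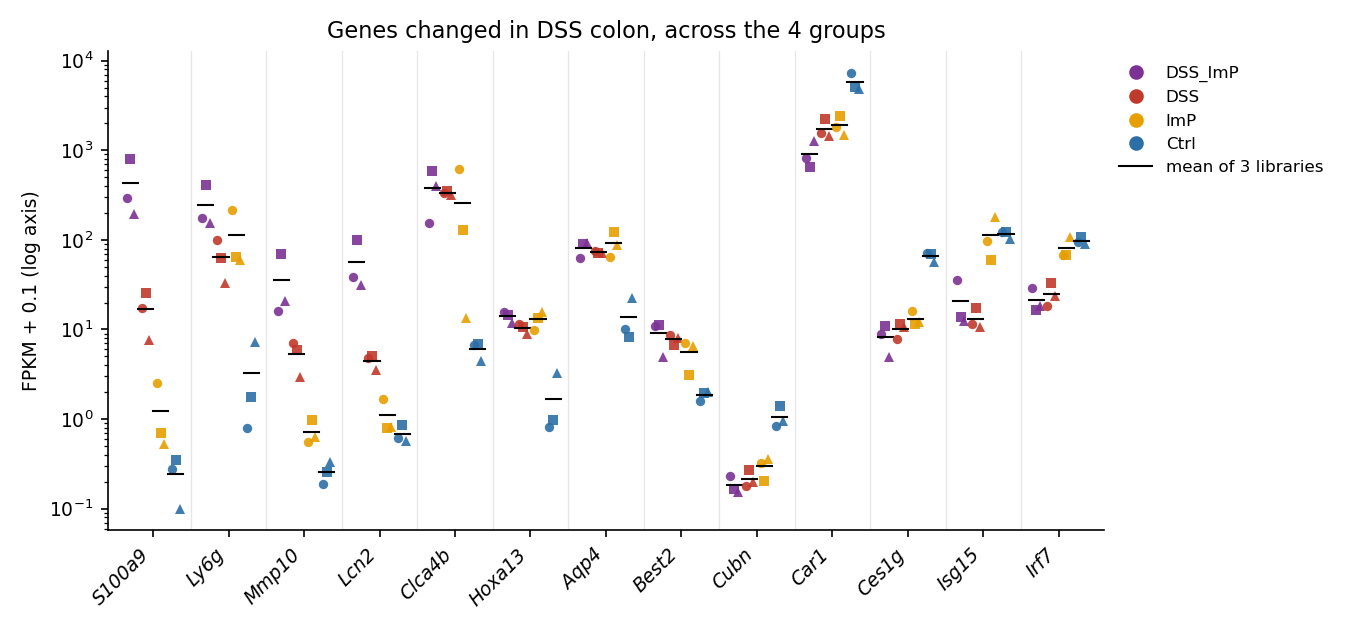
FPKM plus 0.1 on a log axis for 13 genes in DSS_ImP, DSS, ImP and Ctrl libraries, left to right within each gene; circle, square and triangle are the 3 libraries of a group by rising number and the black line is their mean. ImP libraries overlap Ctrl libraries for Isg15 and Irf7, and lie with DSS libraries and apart from Ctrl libraries for Hoxa13, Aqp4, Cubn, Car1 and Ces1g.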

How the data were processed

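Poly(A)-selected, strand-marked RNA libraries of mouse colon (12 in all) were sequenced, per the labels' protocols; the use of strand in counting is not stated in those labels or notes. The submitters' processing notes name cutadapt 1.9, HISAT2 2.0.4 and StringTie 1.3.4d and the build GRCm38. The authors deposited estimated counts and FPKM per gene for 35841 genes, with 1627 at 0 counts throughout. The counts are estimates: 12215 values equal 4, against 7060 equal to 3 and 4182 equal to 5, so 1 read pair adds about 4 counts. Only 597 of 33695 gene IDs shared with GENCODE M21 had its positions, so no position comes from the table. FPKM values are the authors' and were only displayed, save in the limma alternatives.

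Columns were matched to samples by their names. Counts, which are whole as deposited, were tested with edgeR 4.0.16 in R 4.3.3 (TMM, filterByExpr by group, quasi-likelihood test) over all 12 libraries with 1 coefficient per group, for DSS minus Ctrl, two-sided, with Benjamini-Hochberg adjustment and a threshold of 0.05. Standard errors are the log2 change divided by the root of the F statistic. Against a group at 0 the floor was 12 counts over the group, and counting error in the other group was not included. Permutation of 3 against 3 libraries cannot go below p = 0.1, so no permutation test was used. Intervals cover counting error only. The fitting code was checked on simulated data. Alternatives used DESeq2 1.42.0, limma 3.58.1 and other filters and scalings. Tables were made with Python 3.11.15 and pandas 2.3.3.

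The gene lists and named genes were chosen with earlier results of these data known. Named were the 15 largest rises and falls among called genes with a mean of at least 5 FPKM in the higher group, the 5 largest rises and falls in FPKM, and up to 4 genes of smallest p per list. Both rankings by size took only called genes whose groups did not overlap, without predicted-gene symbols. Same-numbered libraries were not treated as pairs: of 9 such pairs 1 had a correlation of deviations over 0.1. Some members of the lists enter the counts but are not reported here by name.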

Additional observations from a re-analysis of the deposited data

How the results depend on the processing

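Of the 623 genes called, 269 were higher and 354 lower in DSS. The total was 1497 with DESeq2 (700 higher, 797 lower), 780 with at least 1 CPM in at least 6 libraries (328, 452), 762 with counts divided by 4 (310, 452), 633 with library totals only (307, 326), 725 and 734 with limma on log2(FPKM + 0.1) and log2(FPKM + 1) (362, 363 and 336, 398), 877 with only the DSS and Ctrl libraries (406, 471) and 446 with no filter (198, 248). It was 282 within the libraries that carry the liver trace (124, 158) and 52 with that trace as a term (27, 25); the cause of the lower count was not tested. Leaving out 1 library gave 268 to 779 calls, 104 to 357 higher and 151 to 422 lower, and 201 genes were called in every such fit. Of 113 named genes called, 2148 of 2590 values kept their call and 442 did not. Of 1104 list medians under alternatives 97 moved by more than 1 SD between the replicates of a group in the median log2 level of that list.

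With the replicate number as a block 10 genes were called (7 higher, 3 lower); DSS and Ctrl share only 1 number, and the correlation of same-numbered libraries ranged from -0.212 to 0.155, so the numbers were not taken to pair them.

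The labels give no dose, time, animal or stretch of colon, and 3 libraries a group leave wide errors. Counts near 12 or below over a group allow no firm level, and copies of near-identical genes cannot be separated. Liver transcripts run with 3 Ctrl libraries and DSS 2. Within the DSS and Ctrl libraries, DSS and the absence of the trace can thus be told apart only through DSS 2. The ImP and DSS_ImP libraries all had a low trace, at 4.60 to 9.67 CPM, and DSS_ImP against ImP was not tested here.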

Other observations

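Further called genes fell into 4 lists that were assembled after the values were seen, so their counts are descriptions only. Of 31 genes of retinoid metabolism 2 rose and 4 fell (median log2 change -0.04). Dhrs9, a dehydrogenase that oxidises retinol, had 18.4, 20.3 and 17.8 FPKM in DSS libraries and 2.13, 2.66 and 3.44 FPKM in Ctrl libraries, a 6.75-fold rise (adjusted p = 0.00170, edgeR's quasi-likelihood test). Rbp2, the retinol carrier of enterocytes, had 6.87, 6.97 and 5.93 FPKM in DSS libraries against 16.7, 18.1 and 14.1 FPKM in Ctrl libraries (adjusted p = 0.00474). Retsat, the retinol saturase, fell 1.91-fold (adjusted p = 0.00807), and the dehydrogenase Rdh9 rose 4.33-fold (adjusted p = 0.0114, and 0.0635 without Ctrl 4). Falls in this list numbered 2 without any 1 of the 6 libraries or DSS_ImP 2, and without Ctrl 4 there was 1 rise.

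Of 28 phospholipases A2 and prostaglandin enzymes 3 rose and 3 fell. Pla2g5, a secreted phospholipase, had 15.9, 15.3 and 15.1 FPKM in DSS libraries and 2.37, 2.42 and 2.60 FPKM in Ctrl libraries (log2 change 2.61 ± 0.30, adjusted p = 0.00202). Pla2g2f rose 3.11-fold (adjusted p = 0.00726), and Pla2g4f had 3.38, 2.82 and 1.97 FPKM in DSS libraries against 0.325, 0.238 and 0.528 FPKM in Ctrl libraries (adjusted p = 0.0142, and at most 0.0740 without Ctrl 1 or Ctrl 4). Hpgd, which breaks down prostaglandins, had 95.2, 88.1 and 97.0 FPKM in DSS libraries and 231, 178 and 198 FPKM in Ctrl libraries, a 2.23-fold fall (adjusted p = 0.00342); without Ctrl 5, DSS 2 or DSS 5 the list had 1 fall. The enzyme Ptgs2, which starts prostaglandin synthesis and is induced in inflammation, had a log2 change of 1.04 ± 0.45 (adjusted p = 0.297).

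Of 8 Schlafen genes, a family induced by interferon in mouse, 3 fell. Slfn5 had 3.26, 3.26 and 2.55 FPKM in DSS libraries and 8.24, 13.7 and 11.2 FPKM in Ctrl libraries (adjusted p = 0.00474), Slfn2 fell 3.497-fold (adjusted p = 0.00872) and Slfn4 fell 3.67-fold (adjusted p = 0.0196, and at most 0.0857 without Ctrl 4, Ctrl 5 or any 1 DSS library). Of 14 apolipoprotein L genes 3 fell, and 5 without DSS_ImP 3. Apol9a had 1.12, 2.83 and 1.55 FPKM in DSS libraries and 12.3, 14.7 and 12.9 FPKM in Ctrl libraries (adjusted p = 0.00485), and Apol9b had 1.76, 3.79 and 1.75 FPKM in DSS libraries and 23.4, 25.7 and 21.9 FPKM in Ctrl libraries (adjusted p = 0.00583); they are near-identical copies, so their reads are uncertain.

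The transporter Slc16a9 had 0.504, 1.72 and 1.20 FPKM in DSS libraries against 10.2, 8.03 and 7.25 FPKM in Ctrl libraries (adjusted p = 0.00295), and the beta-defensin Defb37 had 0.647, 2.30 and 1.42 FPKM against 8.41, 7.51 and 7.57 FPKM (adjusted p = 0.0328, and at most 0.121 without any 1 Ctrl library, DSS 2 or DSS 5). Among rises, the G protein subunit Gna14 had 30.1, 28.3 and 34.1 FPKM in DSS libraries and 5.61, 5.70 and 7.59 FPKM in Ctrl libraries (adjusted p = 0.00170). The annexin Anxa8 had 11.6, 26.8 and 14.2 FPKM in DSS libraries and 1.80, 1.12 and 5.33 FPKM in Ctrl libraries (adjusted p = 0.0152, and at most 0.0784 without Ctrl 1, Ctrl 4 or DSS 3), and the lipid transporter Mfsd2a had 9.01, 10.3 and 8.40 FPKM in DSS libraries and 1.61, 1.44 and 1.79 FPKM in Ctrl libraries (adjusted p = 0.0154, and at most 0.0777 without any 1 Ctrl library). S100a11 had 262, 388 and 287 FPKM in DSS libraries against 176, 131 and 153 FPKM in Ctrl libraries (adjusted p = 0.0197, and at most 0.0906 without Ctrl 4, Ctrl 5 or DSS 3). Of 19 clock genes the repressor Cry2 fell 1.42-fold (adjusted p = 0.00628) and Clock rose 1.36-fold (adjusted p = 0.0450, and at most 0.154 without Ctrl 1, Ctrl 5, any 1 DSS library, DSS_ImP 2, ImP 1 or ImP 3). Of 22 nuclear respiratory chain genes Cox7a1 fell, with 7.54, 9.31 and 9.23 FPKM in DSS libraries and 30.3, 16.7 and 17.7 FPKM in Ctrl libraries (adjusted p = 0.0232, and at most 0.0851 without Ctrl 1 or any 1 DSS library).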
